A study of Mus musculus with 35 samples.

Results

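The collagen genes are the 44 genes, of 53465 counted, whose symbol joins Col, a chain type number, the letter a and a chain number, and they were followed across all 35 RNA-seq libraries of a study of *Smad4* restoration in pancreatic ductal adenocarcinoma (PDAC). They were chosen by symbol, with earlier results of these data known, and the rule uses no measured value. The libraries were made from mKate2+ tumor cells sorted from primary tumors (orthotopic injection), liver metastases (intrasplenic injection with removal of the spleen) and lung metastases (tail-vein injection), 7 or 14 days after doxycycline (Dox) withdrawal or with Dox kept. The transplanted KC-shSmad4 cells derive from primary tumors of mice with Ptf1a-Cre, which acts in pancreatic progenitors, a Cre-activated rtTA3-IRES-mKate2 cassette at Rosa26 and a Dox-inducible shRNA against *Smad4* linked to GFP, and the lines carry luciferase. Libraries of both labels therefore share the reporters and the shRNA, and differ in Dox. Dox was withdrawn after 4, 5 or 6 weeks for pancreas, liver and lungs. The hosts were young adult female Foxn1nu mice, which lack T cells and keep their own fibroblasts and macrophages, so host and tumor transcripts are both mouse.

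Day 7 had 3 pancreas, 2 liver and 4 lung libraries with the label Smad4 off, and 2, 3 and 2 with the label Smad4 on. Day 14 had 2, 3 and 4 of the former and 3, 3 and 4 of the latter. *Smad4* mRNA was 77.9 to 132 CPM (counts scaled to the library total) in the 18 libraries labelled off and 14.4 to 23.2 CPM in the 17 labelled on, against the labels. The groups are therefore called by their labels, and every label fold change sets libraries labelled on against libraries labelled off. By design Dox induces the shRNA and its withdrawal is meant to restore *Smad4*, the state labelled on, and SMAD4 protein was not analysed here. Were the labels or the columns exchanged, the sign of every label comparison and of every interaction below would turn, while the organ comparisons would stay as they are. Library totals were 11.9 to 43.6 M counts (median 19.4 M). A gene was read as detected above 3 counts, which came to 0.0689 to 0.252 CPM, a floor that covers counting error only. The second liver library labelled off on day 7 (Liv-d7-Smad4OFF replicate 2) was labelled paired-end and stood apart. Its 12 fibroblast and stellate markers summed to 1671 CPM and its 5 acinar markers to 276 CPM, against 49.8 to 573 CPM and at most 0.501 CPM in the other 10 liver libraries. Many liver results are therefore given with and without it, and liver values given once include it unless said otherwise. Counts of *mt-Co3* were present in 10 libraries, all from liver and lungs, and absent in 25.

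Collagens are triple helices of 3 chains, and most leave the cell and assemble outside it, fibrillar types as procollagens, while transmembrane types stay anchored in the cell membrane. Fibril-forming types (I, II, III, V, XI, XXIV, XXVII) build fibers, FACIT types decorate their surface, type IV networks form the sheet of basement membranes, type VI makes beaded filaments, and type VII anchors basement membranes to the matrix. In PDAC, cancer-associated fibroblasts make most of the dense interstitial collagen, while carcinoma cells make basement membrane and some fibrillar chains. The shRNA cassette of this model lies at the *Col1a1* locus, so values of *Col1a1* are given in each comparison whether or not it was called.

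The sorted cells of primary tumors held several-fold more collagen mRNA than those of either metastasis. All 44 genes together took 15330 to 39170 CPM in the 10 pancreas libraries (median 23900 CPM), or 1.53 to 3.92% of all counts. In the 14 lung libraries they took 2468 to 5566 CPM (median 3460 CPM), and in the liver without replicate 2 they took 2087 to 8725 CPM (median 3372 CPM). Liv-d7-Smad4OFF replicate 2 held 42730 CPM, the highest of all libraries. No pancreas library overlapped with a lung library or with the other 10 liver libraries.

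The makeup of the collagen mRNA differed along with its amount. Fibril-forming chains made up 54.5 to 70.2% of collagen counts in the pancreas, 15.2 to 53.0% in the liver without replicate 2 and 8.5 to 45.7% in the lungs. The multiplexins *Col15a1* and *Col18a1*, basement membrane chains with endostatin-like ends, made up 5.51 to 13.9%, 17.2 to 53.0% and 19.4 to 61.3%. Type IV chains made up 2.48 to 6.37% in the pancreas, 5.78 to 21.5% in the liver without replicate 2 and 9.60 to 18.7% in the lungs. Fibrillar chains thus led in every pancreas library. The multiplexin share was higher in every metastasis library than in every pancreas library, and the type IV share in every lung library, apart from replicate 2, where fibrillar chains made up 75.4%, multiplexins 5.24% and type IV chains 1.38%.

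**Figure D1:**
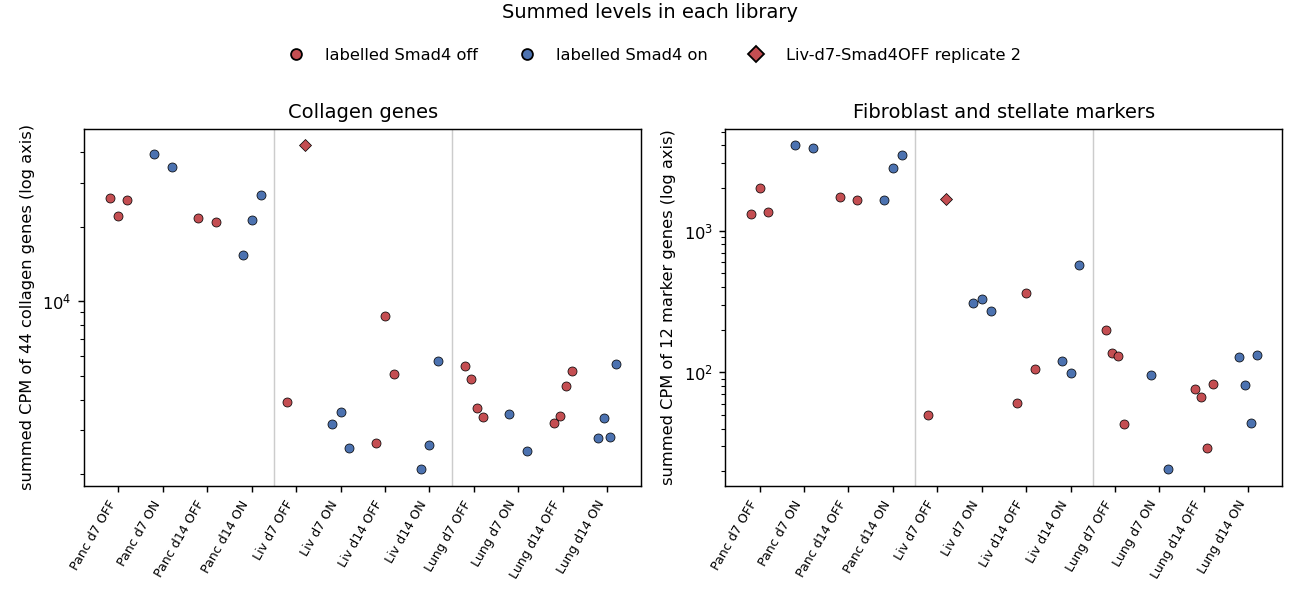
Summed CPM per library (log axis) of the 44 collagen genes, left, and of 12 fibroblast and stellate cell marker genes that include no collagen, right, by organ, day and label, 1 point per library. Pancreas libraries lie at 15330 to 39170 CPM of collagen, above every lung and liver library but Liv-d7-Smad4OFF replicate 2 (diamond, 42730 CPM), and the marker sums separate the organs in the same way.

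As a sum, markers of fibroblasts moved with these levels. Their 12 genes summed to 1303 to 4025 CPM in the pancreas, 49.8 to 573 CPM in the liver without replicate 2 and 20.6 to 200 CPM in the lungs, and the 5 tumor epithelium markers to 2105 to 7128 CPM, 10880 to 14830 CPM and 5895 to 12710 CPM. Not every fibroblast marker followed the sum. *Rgs5* had a mean of 26.1 CPM in the liver, replicate 2 included, against group means of 6.31 to 8.72 CPM in the pancreas. *Des* had a mean of 2.48 CPM in the lungs against group means of 0.826 to 1.79 CPM in the pancreas. In bulk samples, fewer cells of a type and less RNA per cell cannot be told apart. How far fibroblasts in the sorted fraction set the collagen levels was not tested.

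Per kilobase of transcript, *Col18a1* had the highest median level over the 35 libraries (171 CPM per kb). *Col6a1*, a type VI chain, followed at 101 CPM per kb, *Col3a1* at 62.3, *Col4a1* at 47.5 and *Col1a1* at 39.5 CPM per kb. These genes differed far more between libraries than these medians differ, with *Col3a1* ranging from 9.45 to 1499 CPM per kb and *Col18a1* from 78.1 to 393, so the order holds for the median only. At the other end, *Col9a1* and *Col19a1* exceeded 3 counts in 0 libraries, *Col22a1* in 1, *Col9a2* in 2, *Col2a1*, the cartilage fibril chain, in 4 and *Col6a4* in 5. Single libraries held 29 to 38 members above 3 counts. The filter on low counts kept 29 to 33 of the 44 genes in a single organ and day, 38 in the fit of all 35 libraries and 40 in that fit without replicate 2.

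**Figure D2:**
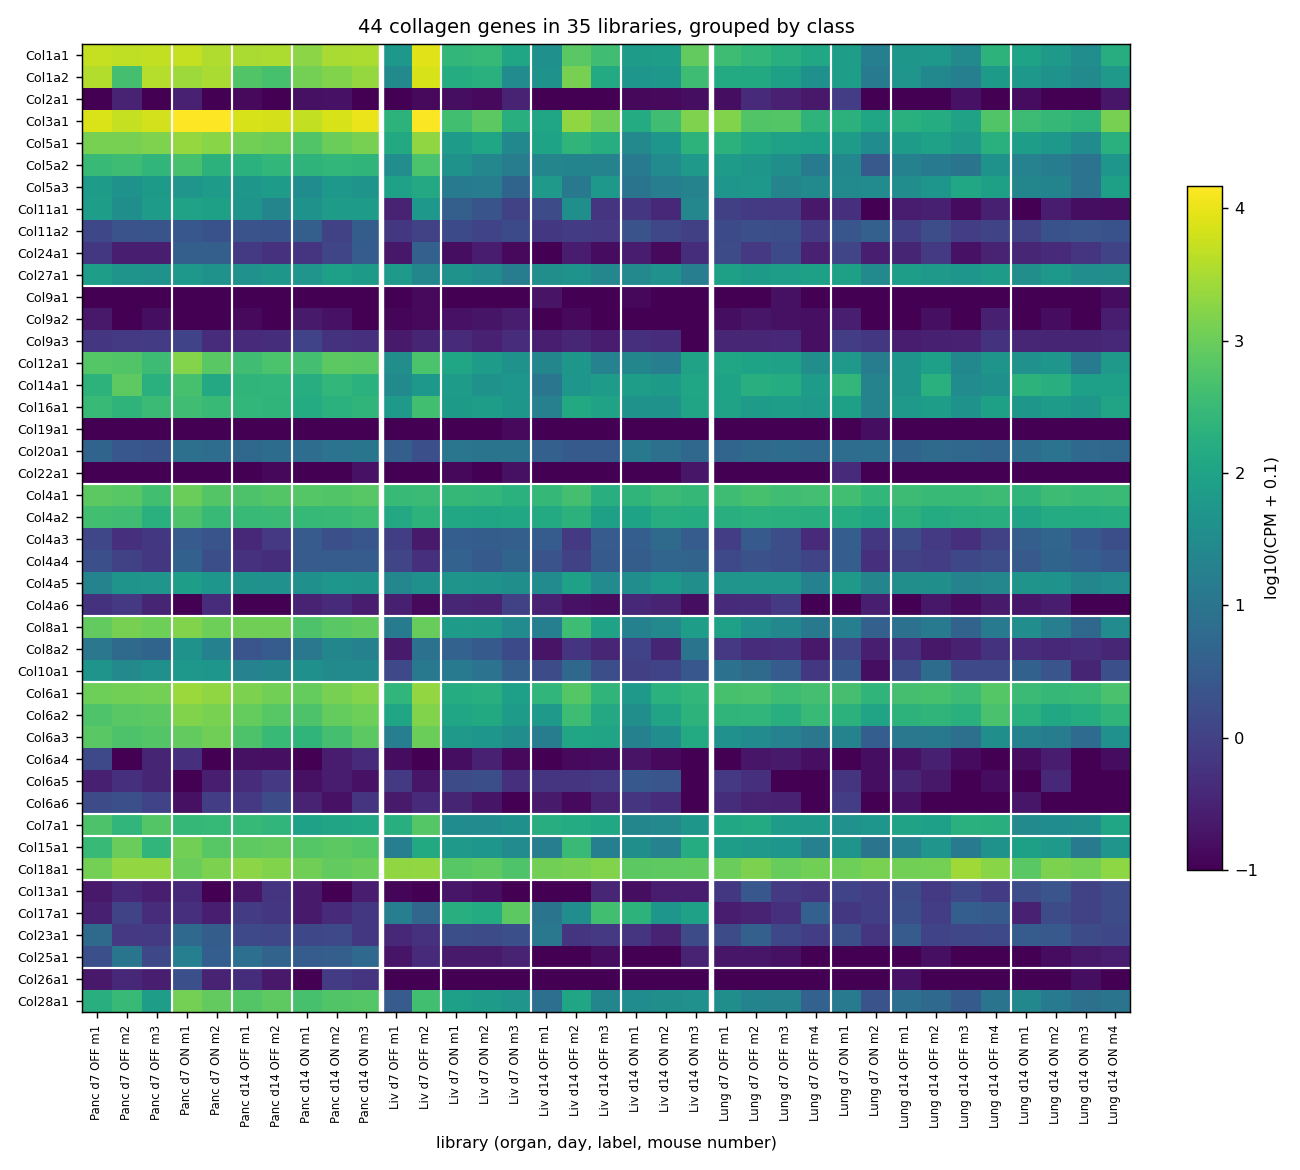
Level of each of the 44 collagen genes (rows, grouped by class with white lines) in each of the 35 libraries (columns, grouped by organ, day and label), as log10 of CPM plus 0.1. The pancreas block and Liv-d7-Smad4OFF replicate 2 are bright for fibrillar and type VI chains, *Col18a1* is bright throughout, and *Col17a1* is bright in the liver, where it lies between 4.92 and 736 CPM.

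Organs were then compared in a single fit of all 35 libraries, averaging over days and labels. In the liver against the pancreas, 26 of 38 members tested were lower and 2 were higher, where 9.41% and 11.5% of all 17547 genes tested were called lower and higher (edgeR's quasi-likelihood test, fold change over 2, Benjamini-Hochberg adjusted P under 0.05). In the lungs against the pancreas, 22 were lower and 1 was higher, against 8.33% and 13.4% of all genes. The median log2 fold change of the members was -1.79 in both comparisons, where all genes tested had medians of 0.05 and 0.06. Without replicate 2 the liver comparison also gave 26 lower and 2 higher of 40 tested (10.6% and 10.3% of all genes) and the lung comparison 22 and 1 (8.37% and 13.6%). By class, the liver comparison called 8 of 10 fibril-forming members lower, 4 of 5 FACIT members, 3 of 3 short-chain members and 2 of 6 type IV members. These comparisons share the pancreas libraries.

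*Col17a1*, a transmembrane collagen of hemidesmosomes that epithelial cells use to hold on to basement membrane, was the member with the largest increase in the liver. It lay between 4.92 and 736 CPM in the 11 liver libraries (median 92.1 CPM), at 0.140 to 1.06 CPM in the pancreas and at 0.156 to 3.78 CPM in the lungs. No liver library overlapped with another organ, though liver libraries differed among themselves by over 2 orders of magnitude. The log2 fold change was 7.76 (SE 0.78, adjusted P = 2.45e-08) against the pancreas and 6.36 (SE 0.67, adjusted P = 2.4e-07) against the lungs. In the third Liv-d7-Smad4ON library, *Col17a1* alone made up 28.9% of all collagen counts. *Col17a1* did not pass the filter in the pancreas on either day. It was not called for the label by edgeR in the liver or lungs, or on average (log2 fold change 0.18, SE 0.61, adjusted P = 0.902). Its liver groups of day 7 were apart, at 16.0 and 4.92 CPM in libraries labelled off and 181, 154 and 736 CPM in those labelled on (log2 fold change 5.00, SE 1.10, adjusted P = 0.0779). Without replicate 2 the value there was 4.43 (SE 1.29, adjusted P = 0.114), and on day 14 in the liver the groups overlapped, at 9.63, 34.4 and 396 CPM against 217, 51.0 and 92.1 CPM (-0.32, SE 1.22).

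*Col25a1*, a transmembrane collagen known from neurons, was close to particular to the pancreas libraries. It lay between 1.24 and 16.6 CPM in the pancreas, at 0 to 0.316 CPM in the liver and at 0 to 0.151 CPM in the lungs, without overlap. Its log2 fold change was -6.14 (SE 0.62) in the liver and -7.66 (SE 0.71) in the lungs (adjusted P = 3.26e-08 and 1.07e-08). *Col26a1*, a collagen first described in testis and ovary, had 0 counts in all 11 liver libraries and a highest level of 1.74 CPM in the pancreas. Over the pooled counts, its pancreas level was at least 42.3-fold higher than the floor of 3 counts over all liver libraries, and the test called it lower in both metastatic organs (liver and lungs, adjusted P = 3.78e-05 and 0.000145).

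*Col13a1*, a transmembrane collagen of cell contacts and the neuromuscular junction, went the other way between organs. It lay between 0.521 and 2.42 CPM in all 14 lung libraries, at 0 to 0.257 CPM in the liver and at 0 to 0.497 CPM in the pancreas. All lung libraries were above all others, with log2 fold changes of 2.64 (SE 0.54, adjusted P = 0.000255) for lungs against pancreas and -4.17 (SE 0.57, adjusted P = 1e-05) for liver against lungs. The highest levels outside the lungs rested on 5 counts in the liver and 16 counts in the pancreas. Markers of lung epithelium and endothelium also set the lungs apart from the liver. *Sftpc* had means of 146 CPM in the lungs and 0.115 CPM in the liver, and *Pecam1* of 11.7 and 1.48 CPM, both called. Their part in the *Col13a1* level was not tested.

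**Figure D3:**
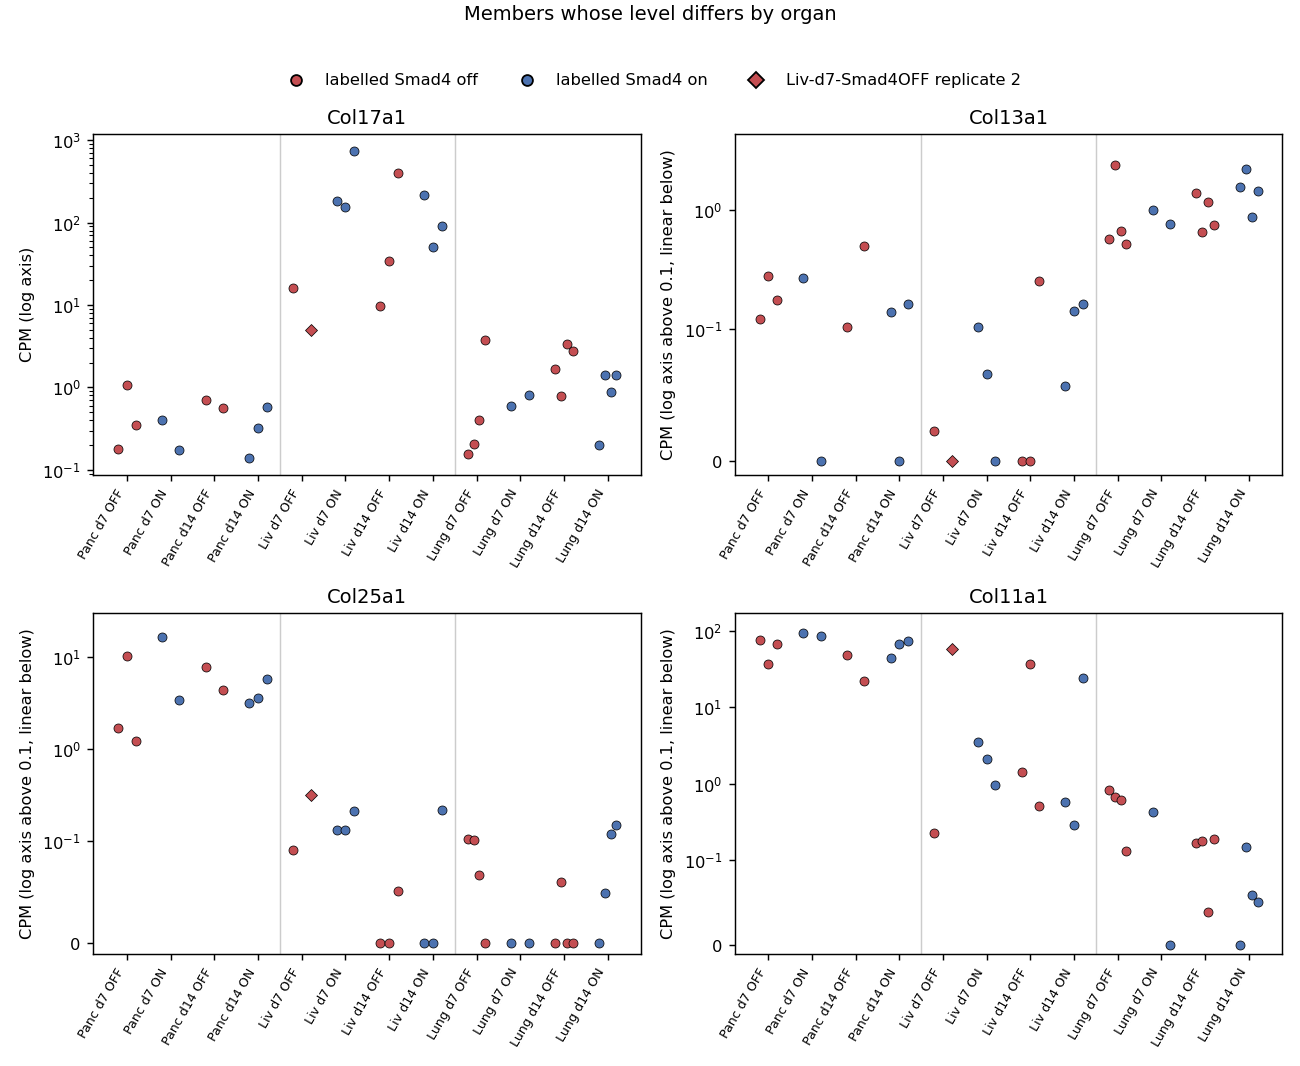
CPM per library of *Col17a1*, *Col13a1*, *Col25a1* and *Col11a1* by organ, day and label (log axis above 0.1 CPM and linear below, 1 point per library). *Col17a1* lies at 4.92 CPM or more in all 11 liver libraries, *Col13a1* at 0.521 CPM or more in all 14 lung libraries and *Col25a1* at 1.24 CPM or more in all 10 pancreas libraries, each above every library of the other organs, while *Col11a1* varies over 2 orders of magnitude within the liver.

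Of the other members called between organs, those with the largest differences belonged to several classes. The lungs against the pancreas gave -8.37 (SE 1.03) for *Col11a1*, a minor fibril chain of cartilage and activated fibroblasts, -5.91 (SE 0.66) for *Col8a1*, a short-chain collagen of endothelium and mesenchyme, -5.65 (SE 0.63) for *Col28a1*, a beaded-filament-like collagen, and -5.34 (SE 0.71) for *Col1a1* on the log2 scale (adjusted P between 9.65e-08 and 1.08e-06). *Col1a1* lay between 1888 and 5291 CPM in the pancreas and between 16.6 and 364 CPM in the lungs, without overlap. With Liv-d7-Smad4OFF replicate 2 kept, the liver against the pancreas gave -3.21 (SE 0.55) for *Col15a1*, -3.07 (SE 0.51) for *Col10a1*, the short-chain collagen of hypertrophic cartilage, and -3.06 (SE 0.56) for *Col8a1* (adjusted P between 2.1e-05 and 7.29e-05). Sizes and order may differ without this library, for which only the value of *Col1a1* is given here. *Col4a1*, a main chain of basement membrane, was at -1.10 (SE 0.14) in the liver and -0.93 (SE 0.13) in the lungs, and *Col1a1* in the liver at -2.61 (SE 0.61, adjusted P = 0.00102), or -4.24 (SE 0.71) without replicate 2. Reads of *Col4a1* and *Col4a2* cannot be fully told apart where their annotated genes overlap by 22 bases on opposite strands, since the strand setting of the counting is not given in the sources used here.

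Replicate 2 of Liv-d7-Smad4OFF decided much of the comparison between the metastatic organs. With it, 12 of 38 members were higher and 1 lower in the liver than in the lungs, where 4.02% and 4.55% of all genes were called. Without it, 6 of 40 were higher and 2 lower, where 3.8% and 4.84% of all genes were called. With it, apart from *Col17a1* and *Col13a1*, given above, the largest log2 fold changes were 5.76 (SE 0.94) for *Col11a1*, 3.12 (SE 0.63) for *Col1a2*, 2.84 (SE 0.53) for *Col8a1* and 2.81 (SE 0.52) for *Col28a1*. Without it these were 3.98 (SE 1.03), 1.33 (SE 0.49), 1.5 (SE 0.42) and 1.25 (SE 0.39), and *Col1a2* was no longer called (adjusted P = 0.0535). *Col1a1* had 2.72 (SE 0.58, adjusted P = 0.00139) with it and 1.10 (SE 0.46, adjusted P = 0.0895) without it. *Col3a1*, *Col5a1*, *Col5a2* and *Col8a2* were likewise called only with replicate 2, and *Col24a1* only without it, at -2.29 (SE 0.57, adjusted P = 0.00486).

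Part of the enzymes and chaperones that make collagen were lower in both metastatic organs. Of 33 genes for hydroxylation, glycosylation, folding, export, procollagen processing and crosslinking, 31 were tested. With Liv-d7-Smad4OFF replicate 2 kept, 19 were lower and 0 were higher in the liver than in the pancreas. In the lungs likewise 19 were lower and 0 higher. Of all genes, 9.41% were called lower in the liver and 8.33% in the lungs. The lowest adjusted P in the lungs were those of *Fkbp10*, a procollagen chaperone (log2 fold change -4.42, SE 0.37), *P4ha1*, a prolyl hydroxylase (-2.01, SE 0.21), *Crtap* (-1.25, SE 0.14) and *Loxl3*, a lysyl oxidase (-3.02, SE 0.33), all with an adjusted P of at most 6.84e-08. Of 9 collagen receptors tested, 4 were lower and 1 higher in the lungs than in the pancreas (8.33% and 13.4% of all genes), with *Ddr2*, the fibrillar collagen receptor of mesenchymal cells, at -5.62 (SE 0.56). These lists were chosen with earlier results of these data known.

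The comparison of labels asked which collagen genes follow the *Smad4* label within an organ. Averaged over the 6 combinations of organ and day, 3 of 38 members were higher and 4 lower in libraries labelled on, where 3.44% and 2.55% of all genes were called. Without replicate 2, 3 of 40 were higher and 2 lower, where 2.9% and 1.78% of all genes were called. Called in both fits were *Col7a1* and *Col5a3*, lower, and *Col4a3*, *Col4a4* and *Col8a2*, higher. The median log2 fold change of the members was -0.21 with replicate 2 and 0.08 without it, where all genes had medians of 0.01 and 0.03, so the average sign of the family rested on this library.

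*Col7a1*, the anchoring fibril chain made by basal epithelial cells and fibroblasts, had the largest decrease in libraries labelled on, and is shown first with the 250 bases before its annotated start, as a reference for the sequence from which it is transcribed. It lies at chr9:108953586-108984875 on the plus strand of GRCm38. The RefSeq table (GRCm38.p6) gives the bases at chr9:108953336-108953585, where capitals mark the only match on either strand to CAGAC, the core of the SMAD-binding element (GTCTG on the strand shown).

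*Col7a1* upstream: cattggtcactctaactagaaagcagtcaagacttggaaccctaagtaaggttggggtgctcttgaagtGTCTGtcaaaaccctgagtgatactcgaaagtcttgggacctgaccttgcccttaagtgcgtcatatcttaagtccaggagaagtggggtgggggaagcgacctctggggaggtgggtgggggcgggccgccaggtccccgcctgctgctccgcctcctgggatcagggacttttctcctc

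The match begins 181 bases before the start. Such a match is common and says nothing about binding: 42.2% of 32841 windows of this length in the table and 17 of the 38 windows of collagen genes (44.7%) hold it. These shares are of whole windows, and 18 of the 38 overlap annotated exons. With exons and the bases beyond them trimmed away, 16 windows held no base and 9 held a match. TGANTCA, the AP-1 core, was found in 1 of the 38 windows (2.6%, against 6.8% of all windows), and GGGCGG, the GC box, in 57.9% against 32.7%. Windows of 35 of the 44 members were matched.

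On day 7, *Col7a1* lay at 521, 247 and 598 CPM in the pancreas libraries labelled off and at 273 and 290 CPM in those labelled on, which overlap. On day 14, it lay at 283 and 255 CPM against 89.9, 102 and 128 CPM, without overlap. In the pancreas on day 14 its log2 fold change was -1.43 (SE 0.14, adjusted P = 0.0017). In the liver it lay at 183 and 639 CPM against 32.8, 31.1 and 39.7 CPM on day 7 and at 169, 154 and 123 CPM against 23.0, 27.4 and 55.2 CPM on day 14. Every liver library labelled on was below every liver library labelled off of the same day. In the lungs it lay at 120, 146, 70.7 and 59.0 CPM against 41.7 and 52.2 CPM on day 7. On day 14 it lay at 95.1, 81.8, 194 and 175 CPM against 29.6, 33.2, 36.8 and 115 CPM, where only the fourth library labelled on reached into the range of those labelled off. Libraries of the same mouse number deviated together there, and in each such pair the library labelled on was lower. With the number as a block *Col7a1* was still not called. The groups were thus apart in 4 of 6 combinations, and the mean was lower in all 6. The average log2 fold change was -1.73 (SE 0.22, adjusted P = 4.86e-06), and -1.51 (SE 0.21, adjusted P = 1.74e-05) without replicate 2.

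*Col4a3* and *Col4a4* encode the type IV chains that pair with the X-linked *Col4a5* chain in the mature basement membranes of kidney glomeruli and lung alveoli. They lie head to head on chromosome 1 at 82586921-82722059 (plus strand) and 82448423-82586849 (minus strand), and their annotated starts are 71 bases apart. This shared stretch is shown because both genes are read away from it and moved alike. In the direction of *Col4a4* it reads as follows, from chr1:82586850-82586920, with no match to GGGCGG, to the SMAD core CAGAC or to the AP-1 core TGANTCA and therefore no capitals. The absence of a match says only that these letters are not in this stretch.

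*Col4a4* to *Col4a3*: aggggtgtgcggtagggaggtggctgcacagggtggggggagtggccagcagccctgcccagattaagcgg

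*Col4a4* lay at 1.75, 0.894 and 0.589 CPM in the pancreas libraries labelled off on day 7 and at 4.01 and 1.68 CPM in those labelled on. On day 14 it lay at 0.455 and 0.373 CPM against 3.02, 3.03 and 3.03 CPM. The second of these pairs of groups is apart, and the log2 fold change there was 2.76 (SE 0.37, adjusted P = 0.00335). In the liver it lay at 1.12 and 0.422 CPM against 4.06, 2.83 and 4.55 CPM on day 7 and at 2.05, 0.903 and 2.82 CPM against 3.21, 4.69 and 4.27 CPM on day 14. Both liver comparisons were without overlap. Lung libraries held 1.30, 1.8, 1.61 and 1.04 CPM against 3.45 and 0.410 CPM on day 7, and at 0.910, 0.778, 1.22 and 1.59 CPM against 2.74, 4.54, 3.48 and 2.42 CPM on day 14. The second lung library labelled on of day 7 was the only one labelled on below all libraries labelled off of its group. The average log2 fold change was 1.55 (SE 0.23, adjusted P = 2.04e-05), and 1.48 (SE 0.24, adjusted P = 0.000121) without replicate 2.

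*Col4a3* showed the same order. It lay at 1.15, 0.391 and 0.589 CPM against 2.94 and 2.08 CPM in the pancreas on day 7 and at 0.280 and 0.621 CPM against 3.02, 1.75 and 2.29 CPM on day 14 (log2 fold change 2.27, SE 0.49, adjusted P = 0.0216). In the liver it lay at 0.803 and 0.141 CPM against 3.43, 3.29 and 3.54 CPM on day 7 and at 3.07, 0.639 and 2.98 CPM against 3.33, 5.94 and 3.08 CPM on day 14. In both organs every library labelled on was above every library labelled off of its day, by a narrow margin in the liver on day 14. In the lungs it lay at 0.782, 2.78, 1.54 and 0.326 CPM against 3.45 and 0.586 CPM on day 7, which overlap, and at 1.49, 0.658, 0.394 and 0.933 CPM against 3.55, 4.69, 2.54 and 1.67 CPM on day 14, which do not. The average log2 fold change was 1.68 (SE 0.30, adjusted P = 0.00017), and 1.57 (SE 0.31, adjusted P = 0.000739) without replicate 2. Of the other type IV chains, *Col4a1*, *Col4a2*, *Col4a5* and *Col4a6* were not called, with average log2 fold changes of -0.08 (SE 0.11), -0.22 (SE 0.12), 0.17 (SE 0.17) and 0.78 (SE 0.48). Both *Col4a3* and *Col4a4* lay at most at 5.94 CPM, and *Col4a1* at no less than 171 CPM.

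**Figure D4:**
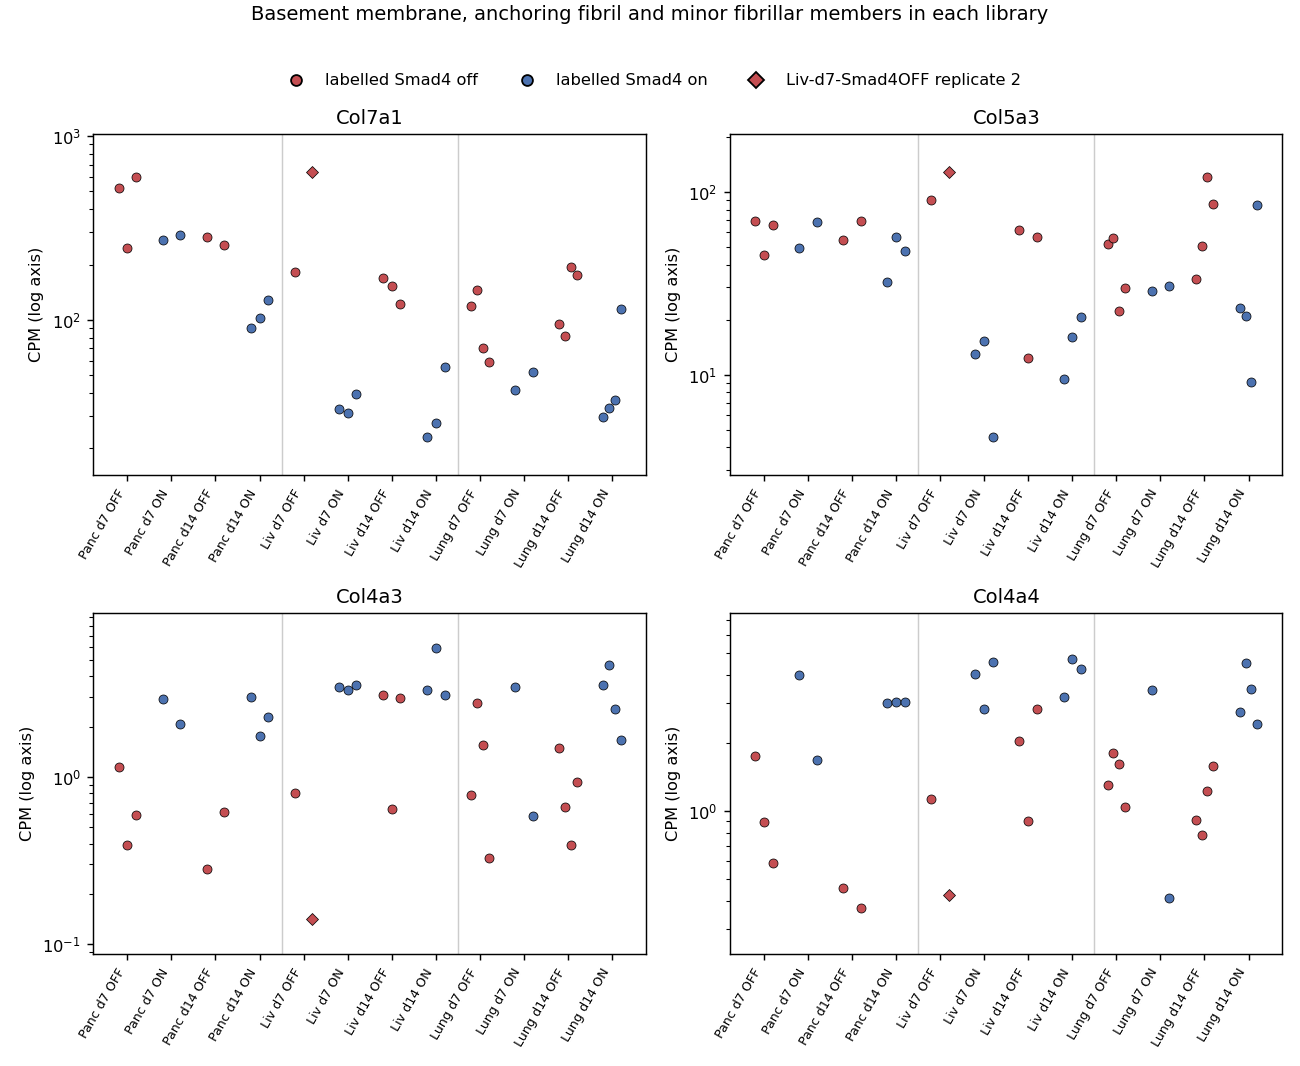
CPM per library (log axes) of *Col7a1*, *Col5a3*, *Col4a3* and *Col4a4* by organ, day and label, 1 point per library. For *Col7a1* the libraries labelled Smad4 on lie below those labelled off in 4 of 6 combinations of organ and day, and for *Col4a3* they lie above in 5 of 6, with overlap in the lungs on day 7.

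*Col5a3*, a minor type V chain that adjusts fibril width, was lower in libraries labelled on. It lies at chr9:20770050-20815067 on the minus strand, and the 250 bases before its start (chr9:20815068-20815317, minus strand, RefSeq, GRCm38.p6) are given because it is the only fibrillar chain called in both fits. They hold no match to CAGAC or TGANTCA, so no base is in capitals, and matches to GGGCGG on either strand begin 63 and 41 bases before the start.

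*Col5a3* upstream: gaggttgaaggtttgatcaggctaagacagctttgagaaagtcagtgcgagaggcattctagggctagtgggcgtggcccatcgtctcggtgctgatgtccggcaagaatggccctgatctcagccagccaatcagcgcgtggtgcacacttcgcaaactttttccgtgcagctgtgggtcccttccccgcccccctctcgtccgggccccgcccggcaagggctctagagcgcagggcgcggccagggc

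*Col5a3* lay at 69.4, 45.2 and 66.2 CPM against 49.6 and 68.5 CPM in the pancreas on day 7 and at 54.9 and 69.5 CPM against 32.1, 56.3 and 47.5 CPM on day 14. In the liver it lay at 90.1 and 129 CPM against 13, 15.4 and 4.55 CPM on day 7 and at 62.0, 12.4 and 56.3 CPM against 9.44, 16.0 and 20.7 CPM on day 14. Only the liver groups of day 7 were apart, and the pancreas groups overlapped on both days, on day 14 only between 54.9 and 56.3 CPM. Lung libraries held 51.8, 55.9, 22.4 and 29.7 CPM against 28.5 and 30.6 CPM on day 7 and 33.6, 50.6, 121 and 85.3 CPM against 23.2, 20.9, 9.15 and 85.0 CPM on day 14. Within each pair of the same mouse number on day 14 the library labelled on was lower, narrowly in the fourth. The average log2 fold change was -1.19 (SE 0.27, adjusted P = 0.002), and -1.12 (SE 0.28, adjusted P = 0.0056) without replicate 2.

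*Col8a2* is the partner chain of *Col8a1* in the hexagonal networks under corneal and vascular endothelium. In the pancreas it lay at 10.9, 6.09 and 4.6 CPM against 44.9 and 18.2 CPM on day 7 and at 2.21 and 3.11 CPM against 11.6, 23.1 and 18.3 CPM on day 14. Libraries labelled on were above those labelled off on both days, and on day 14 the log2 fold change was 2.63 (SE 0.33, adjusted P = 0.00369). In the liver it lay at 0.138 and 8.82 CPM against 4.06, 2.80 and 1.36 CPM on day 7 and at 0.0830, 0.489 and 0.257 CPM against 0.995, 0.251 and 9.73 CPM on day 14. The value of 8.82 CPM belongs to replicate 2, and one of 9.73 CPM to the third Liv-d14-Smad4ON library, which also had the highest fibroblast marker sum of the liver libraries apart from replicate 2 (573 CPM). In the 14 lung libraries it did not exceed 1.09 CPM. The average log2 fold change was 1.38 (SE 0.44, adjusted P = 0.022) with and 2.24 (SE 0.42, adjusted P = 0.000453) without replicate 2.

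*Col5a1*, the common type V chain that starts fibrils, and *Col8a1* were called lower only with replicate 2. *Col5a1* had an average log2 fold change of -1.04 (SE 0.33, adjusted P = 0.0208), and -0.50 (SE 0.29, adjusted P = 0.244) without it. *Col8a1* had -1.13 (SE 0.42, adjusted P = 0.049), and -0.23 (SE 0.35, adjusted P = 0.735) without it. In that library *Col5a1* lay at 2065 CPM and *Col8a1* at 938 CPM, against 136 and 13.2 CPM in the other library of its group. In the pancreas *Col5a1* lay at 1275, 1267 and 1451 CPM against 2255 and 1784 CPM on day 7, higher in libraries labelled on and without overlap (log2 fold change 0.58, SE 0.16, adjusted P = 0.102), and at 1174 and 1030 CPM against 574, 1017 and 1267 CPM on day 14, with overlap. *Col5a1* lay at 25.6 to 117 CPM in the liver libraries labelled on of day 7 and at 27.4, 52.9 and 215 CPM in those of day 14, where those labelled off held 99.5, 242 and 165 CPM. In the lungs it lay at 214, 124, 90.8 and 82.0 CPM against 68.6 and 32.6 CPM on day 7, without overlap, and at 70.3, 89.0, 61.9 and 193 CPM against 80.6, 57.5, 31.5 and 186 CPM on day 14.

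*Col8a1* overlapped between labels in every combination but the pancreas on day 14. There it lay at 1111 and 1120 CPM against 542, 692 and 797 CPM, a log2 fold change of -0.82 (SE 0.15, adjusted P = 0.0135) that stayed under 2-fold. On day 7 in the pancreas it lay at 852, 1292 and 1071 CPM against 1518 and 1089 CPM. It lay at 16.7, 373 and 95 CPM against 18.6, 27.0 and 80.4 CPM in the liver on day 14, and at 71.6, 61.0 and 30.9 CPM in the liver libraries labelled on of day 7. The lung libraries held 91.3, 41.4, 25.8 and 12 CPM against 17.2 and 3.69 CPM on day 7 and 8.52, 12.7, 4.37 and 14.0 CPM against 34.0, 16.1, 5.14 and 30.7 CPM on day 14.

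*Col1a1*, whose locus carries the shRNA cassette, was not called for the label on average (log2 fold change -1.25, SE 0.46, adjusted P = 0.0505), and without replicate 2 the value was -0.17 (SE 0.39, adjusted P = 0.85). It lay at 5291, 4703 and 4998 CPM against 5233 and 3517 CPM in the pancreas on day 7 and at 3283 and 3366 CPM against 1888, 3247 and 3450 CPM on day 14. In the liver it lay at 56.7 and 8623 CPM against 260, 287 and 116 CPM on day 7 and at 39.5, 689 and 378 CPM against 71.1, 75.1 and 864 CPM on day 14. All 4 of these pairs of groups overlap. In the lungs it lay at 364, 262, 170 and 122 CPM against 77.1 and 16.6 CPM on day 7, without overlap, and at 55.4, 56.2, 29.5 and 217 CPM against 101, 61.2, 34.8 and 166 CPM on day 14.

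**Figure D5:**
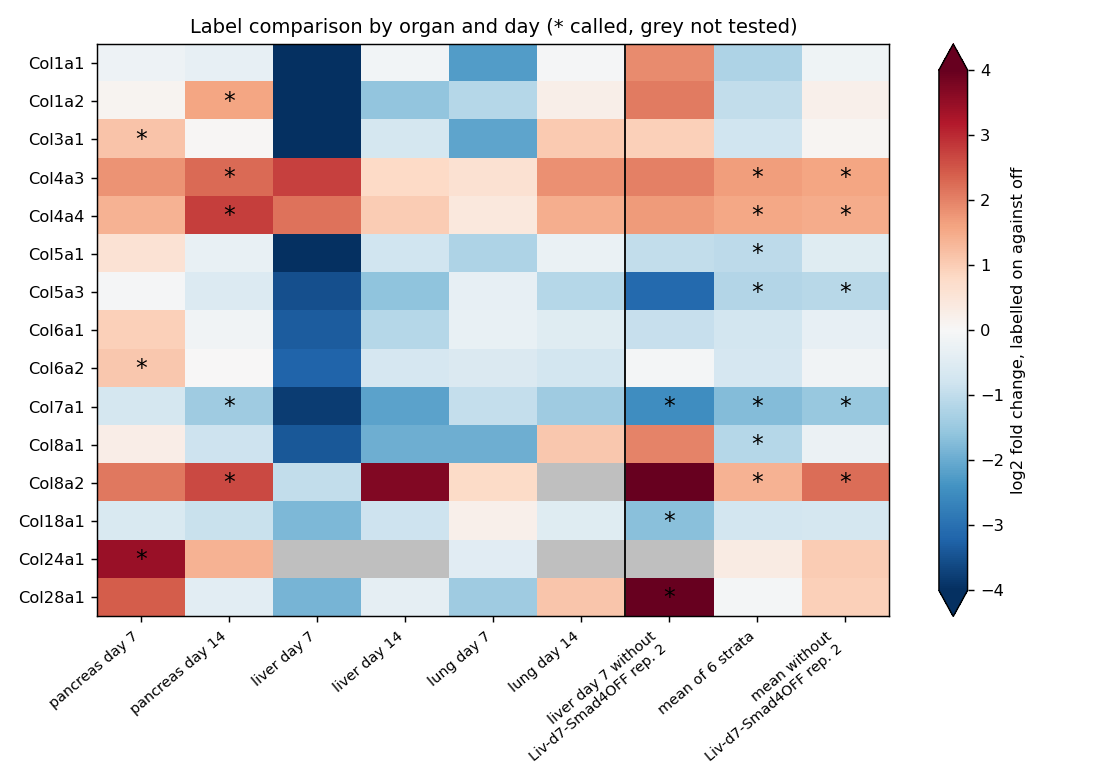
Log2 fold change of libraries labelled Smad4 on against off for the members called in any of these label comparisons, *Col1a1* and *Col6a1* (rows), in each organ and day, in the liver on day 7 without replicate 2, and averaged over the 6 combinations with and without it. Asterisks mark called members and grey cells members that did not pass the filter, and the color scale ends at 4 in both directions. *Col4a3* and *Col4a4* are above 0 in all columns and *Col7a1* below 0 in all columns, while the liver column of day 7 changes sign for *Col1a1*, *Col1a2*, *Col3a1*, *Col8a1*, *Col8a2* and *Col28a1* without replicate 2.

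A further 4 members passed the adjusted P without reaching a 2-fold change on average, and are named after their values were seen. *Col18a1*, with the highest median level per length over all libraries, had -0.73 (SE 0.14, adjusted P = 0.000405). *Col6a1* had -0.73 (SE 0.22, adjusted P = 0.0172), which became -0.33 (SE 0.18, adjusted P = 0.212) without replicate 2. *Col20a1*, a FACIT collagen, had 0.95 (SE 0.12, adjusted P = 4.89e-06), and *Col11a2* had 0.70 (SE 0.19, adjusted P = 0.00834). *Col20a1* lay at 1.69 to 6.65 CPM in all 18 libraries labelled off and at 5.25 to 12 CPM in all 17 labelled on. Its groups were apart in 5 of 6 combinations of organ and day, the same number as for *Col4a3*. The 27 members that were tested on average and neither called nor named in this paragraph lay between -1.25 and 0.78.

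In the pancreas on day 7, 3 of 33 members were higher in libraries labelled on and 0 lower, where 0.956% of all 14439 genes were called higher. *Col3a1*, the reticular fibril chain, lay at 7503, 5139 and 6624 CPM in libraries labelled off and at 14210 and 14720 CPM in those labelled on. *Col6a2* lay at 556, 694 and 749 CPM against 1546 and 1339 CPM. Both were without overlap and rose about 2-fold, with log2 fold changes of 1.15 (SE 0.18, adjusted P = 0.0354) and 1.09 (SE 0.17, adjusted P = 0.0363). *Col24a1*, a minor fibril chain of bone, lay at 0.604, 0.168 and 0.177 CPM against 3.54 and 3.58 CPM, with a log2 fold change of 3.46 (SE 0.54, adjusted P = 0.0343). In 2 of its 3 libraries labelled off it had 3 counts.

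*Col6a1* lay at 1061, 1171 and 1204 CPM against 2441 and 2062 CPM and rose by less than 2-fold (log2 fold change 0.95, SE 0.15, adjusted P = 0.0343). The fibroblast marker sum moved in the same direction. It was 1303 to 1992 CPM in libraries labelled off and 3842 to 4025 CPM in those labelled on. *Fbln1* and *Pdgfra*, 2 of the 11 markers tested, were called higher, at 2.32 (SE 0.21) and 2.93 (SE 0.46). *Des* and *Rgs5* were lower, at -0.83 (SE 0.71) and -0.37 (SE 0.38), and were not called. Acinar markers were 1475 to 2600 CPM against 570 to 800 CPM. Their part in the collagen result was not tested. The calls rested on single libraries, with 0 left without the third library labelled off or without either library labelled on, 1 without the second labelled off and 2 without the first. In a single fit of all 12 groups 0 were called as well.

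In the pancreas on day 14, 4 of 31 members were higher and 1 lower, where 3.39% and 1.26% of all 14234 genes were called. Apart from *Col4a3*, *Col4a4*, *Col8a2* and *Col7a1*, described above, *Col1a2*, the second type I chain, was called. It lay at 584 and 455 CPM in libraries labelled off and at 1204, 1522 and 2275 CPM in those labelled on (log2 fold change 1.58, SE 0.31, adjusted P = 0.0334). These libraries labelled off, together with the second Panc-d7-Smad4OFF library (441 CPM, against 3761 and 3959 CPM in the other libraries of its group), held less *Col1a2* than all other pancreas libraries. Their *Col1a1* was 3283, 3366 and 4703 CPM, within the range of the other pancreas libraries. The ratio of *Col1a2* to *Col1a1* per length ranged from 0.0496 to 0.486 over the pancreas libraries, although type I collagen holds 1 alpha 2 chain for 2 alpha 1 chains. *Col18a1* (-0.90, SE 0.13), *Col8a1* and *Col15a1* (-0.38, SE 0.10) passed the adjusted P below 2-fold, and *Col6a1* lay at 1384 and 1190 CPM against 899, 1293 and 1592 CPM, with overlap. The 5 calls fell to 2, *Col4a4* and *Col7a1*, without the first library labelled off, and to 0 in a single fit of all 12 groups. The fibroblast marker sum was 1641 to 1730 CPM against 1644 to 3404 CPM, and of its 11 markers tested *Fbln1* was called higher (1.39, SE 0.31, adjusted P = 0.0483). The epithelial marker *Cdh1* passed the adjusted P below 2-fold (0.91, SE 0.09, adjusted P = 0.00116). *Ttr*, a hepatocyte marker, was called higher (2.38, SE 0.32, adjusted P = 0.00341), with means of 1.24 CPM in libraries labelled off and 6.95 CPM in those labelled on. Their part in the collagen calls was not tested.

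Several companion genes of collagen biosynthesis were lower in libraries labelled on. In the pancreas on day 14, 4 of 30 were lower and 0 higher, where 1.26% of all genes were called lower, and on average over organs and days 7 of 31 were lower and 0 higher, where 2.55% were called lower. Without replicate 2, 4 of 32 were lower and 0 higher on average, against 1.78% of all genes lower. *Bmp1*, which cleaves the C-terminal end of procollagens, had -1.32 (SE 0.15, adjusted P = 8.06e-07), *Loxl2* and *Loxl3*, crosslinking oxidases, -1.41 (SE 0.20) and -1.43 (SE 0.26), and *Adamts14*, which cleaves the N-terminal end, -1.51 (SE 0.26). These 4 genes were also the 4 called without replicate 2, at -1.18, -1.25, -1.01 and -1.27. In the lungs on day 7 none of them was called. *Loxl3* went the other way there (0.40, SE 0.41), while *Bmp1* (-0.78, SE 0.29), *Loxl2* (-0.93, SE 0.41) and *Adamts14* (-0.12, SE 0.54) were lower. The summed level of the 5 crosslinking genes was 1246 to 1390 CPM against 894 to 1096 CPM in the pancreas on day 7 and 1097 to 1245 CPM against 479 to 740 CPM on day 14. Liver libraries held 257 and 1500 CPM against 41 to 104 CPM on day 7 and 216 to 477 CPM against 61.7 to 188 CPM on day 14. These 4 pairs of groups were apart, while those of the lungs overlapped, at 125 to 305 CPM against 105 to 149 CPM on day 7 and 154 to 225 CPM against 97.1 to 211 CPM on day 14. Among receptors, *Itga11* and *Itga1*, which are collagen-binding integrin alpha chains, were called higher in the pancreas on day 14 (1.63, SE 0.24, and 1.78, SE 0.26). Of other such chains there, *Itga2* passed the adjusted P below 2-fold (0.59, SE 0.12) and *Itga10* was not called (-0.23, SE 0.28). On average *Ddr2* was called lower (-1.21, SE 0.37) of 9 receptors with replicate 2, and *Itga11* higher (1.52, SE 0.53) without it.

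In the liver on day 7, 0 of 32 members were called by edgeR in either direction, where 0.444% of all 16007 genes were called, although 17 had an unadjusted P under 0.05 (27.1% of all genes) and DESeq2 called 19 (17.7% of all genes). Replicate 2 widened the spread of its group for interstitial chains. *Col1a2* lay at 28.7 and 7078 CPM in the libraries labelled off and at 160, 188 and 31.5 CPM in those labelled on, and *Col3a1* at 218 and 13730 CPM against 400, 743 and 179 CPM. The libraries labelled on lay between the libraries labelled off for *Col1a2*, and for *Col3a1* 1 of the 3 lay below both. *Col6a1* lay at 258 and 2154 CPM against 161, 181 and 83.9 CPM. Its groups were apart, as were those of *Col18a1*, at 2049 and 2101 CPM against 677, 774 and 548 CPM. *Col18a1*, *Col5a3* and *Col7a1* came closest to the threshold, with -1.81 (SE 0.25), -3.51 (SE 0.55) and -3.79 (SE 0.61) on the log2 scale (adjusted P = 0.0562, 0.0578 and 0.0578).

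Without replicate 2, 1 of 33 members was higher and 2 were lower, where 3.12% and 1.85% of all 17266 genes were called. This sets 1 library labelled off against 3 labelled on, so the single library is assumed to vary like the others. *Col7a1* (-2.47, SE 0.20, adjusted P = 0.0263) and *Col18a1* (-1.69, SE 0.26, adjusted P = 0.0378) fell, and *Col28a1* rose, from 3.01 CPM to 81.1, 69.5 and 49.0 CPM (log2 fold change 4.40, SE 0.40, adjusted P = 0.0263). Replicate 2 held 395 CPM of *Col28a1*. The median log2 fold change of the members was -1.39 with replicate 2 and 0.99 without it, where all genes tested had -0.06 and 0.06. *Col1a1*, called in neither, went from -4.57 (SE 1.76) to 1.89 (SE 0.56). The fibroblast marker sum was 49.8 CPM in the remaining library labelled off and 269 to 328 CPM in those labelled on, and *Pdgfrb* was called higher (2.21, SE 0.20). The tumor epithelium marker *Epcam* was called higher as well (1.48, SE 0.24, adjusted P = 0.0406), with a marker sum of 10880 CPM against 12810 to 14830 CPM, and the leukocyte marker sum was 12.3 CPM against 33.1 to 51.5 CPM. Their part in the rise of *Col28a1* was not tested.

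Among companion genes without replicate 2, 4 of 31 biosynthesis genes were lower and 0 higher in the liver on day 7, where 1.85% of all genes were called lower. *Bmp1* had -2.29 (SE 0.15), *P4ha2* -1.37 (SE 0.20), *Plod2*, a lysyl hydroxylase, -3.00 (SE 0.54) and *P4ha1* -1.93 (SE 0.35). Of 9 receptors, *Itga11* was higher (5.26, SE 0.65) and *Itgb1* lower (-1.18, SE 0.21).

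In the lungs on day 7, 0 of 32 members were called in either direction, where 0% of all 15193 genes were called. At an unadjusted P under 0.05, 5 members were listed, *Col1a1*, *Col3a1*, *Col5a1*, *Col11a2* and *Col7a1*, against 5.22% of all genes, and DESeq2 called 1, *Col1a1*, against 0.658%. Fibroblast markers such as *Lum* (-2.64, SE 0.86) and *Pdgfrb* (-1.40, SE 0.66) were lower too, and *Rgs5* was higher (0.56, SE 0.80). None of them was called, and their part in the collagen values was not tested. In the liver on day 14, 0 of 31 were called, where 0% of all 14947 genes were called. There 5 had an unadjusted P under 0.05, *Col7a1*, *Col18a1*, *Col20a1*, *Col8a2* and *Col5a3*, against 9.68% of all genes, and DESeq2 called 1, *Col7a1*, against 2.22%. *Col6a1* lay at 249, 646 and 243 CPM against 61.1, 198 and 269 CPM in the liver on day 14, with overlap. In the lungs it lay at 458, 477, 363 and 440 CPM against 434 and 245 CPM on day 7 and at 444, 468, 355 and 652 CPM against 333, 271, 323 and 484 CPM on day 14, also with overlap. On day 14 each lung library labelled on lay below the library labelled off of the same mouse number.

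In the lungs on day 14, 0 of 29 members were called, where 0.0271% of all 14751 genes were called in either direction. At an unadjusted P under 0.05 there were 5, *Col4a4*, *Col27a1*, *Col4a3*, *Col7a1* and *Col28a1*, against 10.1% of all genes, and DESeq2 called 2, *Col4a3* and *Col4a4*, against 1.34%. Libraries with the same mouse number deviated together here, and with the number as a block edgeR called 1 member, *Col3a1*, where 0.739% of all genes were called. It lay at 188, 161, 92.7 and 569 CPM in libraries labelled off and at 347, 280, 229 and 1309 CPM in those labelled on, higher in the library labelled on of each of the 4 pairs. The fibroblast marker sum was 29.2 to 82.3 CPM against 43.5 to 132 CPM and that of 5 leukocyte markers 44.5 to 156 CPM against 95.6 to 351 CPM. None of these markers was called, and the groups of *Thy1*, a fibroblast marker, were apart (2.66, SE 0.57, adjusted P = 0.208). Their part in the *Col3a1* values was not tested.

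A term for organ by label tested whether libraries from both metastatic organs differed in their response to the label (interaction). On day 7, 2 of 35 members were called, *Col18a1* (-1.94, SE 0.41, adjusted P = 0.0479) and *Col5a3* (-3.13, SE 0.67, adjusted P = 0.0485), where 0.984% of all genes were called lower. In the lungs *Col18a1* lay at 987, 1438, 925 and 1160 CPM in libraries labelled off and at 1065 and 1339 CPM in those labelled on, with overlap, where the liver groups were apart. Leaving out any of 9 of the 11 libraries left 0 calls. Without replicate 2, 0 of 37 were called, where 0.0288% of all genes were called, and *Col18a1* and *Col5a3* had -1.84 (SE 0.45, adjusted P = 0.0957) and -2.75 (SE 0.73, adjusted P = 0.113). On day 14, 0 of 32 were called, where 0% of all genes were called, and 3 members had an unadjusted P under 0.05, *Col20a1*, *Col8a1* and *Col23a1*, against 3.01% of all genes. *Col1a1* was not called by the interaction, at -2.25 (SE 1.75) on day 7, 4.16 (SE 1.09, adjusted P = 0.109) on day 7 without replicate 2 and -0.07 (SE 1.45) on day 14.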

How the data were processed

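RNA-seq was available for 35 libraries of FACS-sorted mKate2+ tumor cells (polyA-selected, stranded kit, 75-bp reads). The authors deposited counts of reads per gene, whole numbers without normalization, for 53465 genes. Per the submitters' processing notes, FastQC 0.11.5, Trimmomatic 0.36, STAR 2.5.3a and featureCounts 1.6.3 were used with GRCm38 (mm10), and the strand setting of the counting is not given in the sources used here. Libraries were grouped by organ, day and label in 12 groups. Nothing states that mouse numbers pair animals across labels, and P values measure the spread between these libraries. One further allele of the model, shared by all libraries, is not reported here.

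The 44 collagen genes were taken by symbol. Members, gene lists and comparisons were chosen with earlier results of these data known. CPM are counts scaled to the total count of a library. Counts were scaled by TMM, filtered with filterByExpr (minimum count 10, minimum total 15) and tested with edgeR 4.0.16 (quasi-likelihood, robust) in R 4.3.3, with Benjamini-Hochberg adjustment over all genes tested, and called where they differed more than 2-fold with adjusted P under 0.05. SE is the log2 fold change divided by the square root of F. Labels were compared within each organ and day and as an average over the 6 combinations, organs over the 12 groups, and responses by interaction. The libraries' values, some as ranges, were given for members called in a label comparison in that comparison and for *Col1a1* and *Col6a1*, in organ comparisons the 6 called members with the largest log2 fold change, and of companion lists up to 4 called genes. Alternatives were DESeq2 1.42.0, its size factors, other filters, no fold threshold, mouse numbers as a block, a covariate for *mt-Co3*, a single fit, and leaving out each library. Added after seeing the data were the average over libraries with or without *mt-Co3* counts or over liver and lungs only, and single fits and the lung comparison without Liv-d7-Smad4OFF replicate 2. The fits were tested on simulated data. Same-numbered libraries deviated together in the lungs on day 14, with correlations of 0.55 to 0.66 for all 4 pairs, and not for all pairs elsewhere. Promoter windows came from RefSeq (GRCm38.p6). Printed stretches were trimmed at annotated exons, and motif shares were taken over whole windows. Python 3.11.15 and matplotlib 3.10.9 drew the figures.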

Additional observations from a re-analysis of the deposited data

Results flagged for a closer look

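In groups of 4 to 10 libraries, the highest or lowest value was compared with the others by Dixon's criterion for 14 members, 42 groups in all, namely *Col1a1*, *Col6a1* and those called by edgeR with all libraries in a label comparison or an interaction. Chance flags about 1 in 20 groups, and 3 stood out. *Col1a1* lay at 217.2 CPM in the fourth Lung-d14-Smad4OFF library, against 29.5 to 56.2 CPM in the others. *Col3a1* lay at 1309 CPM in the fourth Lung-d14-Smad4ON library, against 229 to 347 CPM. *Col7a1* lay at 114.6 CPM in that library, against 29.6 to 36.8 CPM. Both libraries hold *mt-Co3* counts.

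The response to the label differed between liver and lungs on day 7 for *Col18a1*, by -1.94 on the log2 scale, and for *Col5a3*, by -3.13, by edgeR's interaction test (adjusted P = 0.0479 and 0.0485). The group means lay lower in libraries labelled on for *Col5a3* in both organs. Without Liv-d7-Smad4OFF replicate 2 both missed the threshold (adjusted P = 0.0957 and 0.113).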

How the results depend on the processing

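Called members are counted here, with the share of all genes called in the same fit in parentheses where the count moved by over 1.5 times and was not 0. Over single libraries left out, the counts ranged from 0 to 2 in the pancreas on day 7 (3 with all), 0 to 22 in the liver on day 7 (0 with all, 22 (19.8%) without Liv-d7-Smad4OFF replicate 1 and 3 (4.98%) without replicate 2), 2 to 7 in the pancreas on day 14 (5 with all, 2 (1.43%) without Panc-d14-Smad4OFF replicate 1), 5 to 10 on average over organs and days (7), 8 to 15 for liver against lungs (13, 8 (8.64%) without Liv-d7-Smad4OFF replicate 2), 26 to 30 for liver against pancreas (28), 22 to 26 for lungs against pancreas (23) and 0 to 12 for the interaction on day 7 (2, 12 (13%) without Liv-d7-Smad4OFF replicate 1). The other label comparisons and the interaction on day 14 gave 0 throughout. DESeq2 on day 7 called 6 (3.59%) for pancreas, 19 (17.7%) for liver, 1 (0.658%) for lungs and 6 (11.5%) for the interaction, and on day 14 it called 1 (2.22%) for liver and 2 (1.34%) for lungs. Without a filter there were 5 (2.1%) in the pancreas and 3 (3.34%) in the liver on day 7, 4 (2.9%) on average and 1 (1.47%) for the interaction on day 7. With at least 10 counts in every library there were 3 (2.69%) in the liver on day 7, 8 (3.58%) for liver against lungs and 18 (12.3%) for liver against pancreas, where fewer genes are tested. No fold threshold gave 8 (12.9%) in the pancreas on day 14 and 11 (24.6%) on average. A covariate for *mt-Co3* gave 3 (6.38%) for liver on day 7 and 2 (0.861%) for lungs on day 14. A single fit of 12 groups gave 0 in the pancreas on both days, 19 (17.6%) in the liver on day 7 and 2 (1.45%) on day 14, and without Liv-d7-Smad4OFF replicate 2 it gave 1 (0.408%), 5 (6.2%) and 3 (1.94%) in the pancreas on day 7 and the liver on days 7 and 14. The average over liver and lungs gave 11 (7.61%), and that over libraries with *mt-Co3* counts 2 (4.39%). The cause of the other changes was not tested.

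The mouse number as a replicate block gave 0 in the pancreas on day 7, 1 (0.739%) in the lungs on day 14 and 0 for the interaction on day 7, and kept the other counts within 1.5 times. The labels state no pairing by mouse number in any organ or day. In the lungs on day 14 such a pairing rests only on how the libraries deviated together.

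At 3 counts, 0.0689 to 0.252 CPM, *Col9a1*, *Col19a1*, *Col22a1*, *Col9a2*, *Col2a1* and *Col6a4* could not be followed, and *Col13a1*, *Col24a1*, *Col25a1* and *Col26a1* only in some organs. Groups of 2 to 4 libraries limit every label comparison.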
